A study of Mus musculus with 14 samples.

Results

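In untreated mouse embryonic stem (ES) cells of 1 experiment, 150 probes, of 31053 tested and these 73.9% of the probes on the array, were chosen as high, at nearly the same level under retinoic acid (RA), and low both under the kinase inhibitor LY294002 and in a separate untreated culture of the same subline. The members were chosen by their values on 8 arrays. A probe had to be well above background in Cy3, the dye of the sample, on both arrays of the treatment experiment's control (30261 probes). It had to differ by at most 0.5 on the log2 scale between RA and that control (22600 probes), and to be more than 0.5 higher in the control than in the standard culture (5158 probes). Of these, the 150 with the highest score were kept, where the score is the smaller of control minus standard and control minus LY294002 on the log2 scale of the processed ratios. On the normalized scale used for the levels below, 147 of the 150 were higher in the control than in the standard culture, and Z00023306-1, Z00076937-1 and Z00055220-1 were not. Differences between these 4 groups are given as a description only, and tests were run on the 6 arrays the choice did not use.

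The series followed undifferentiated colonies that appear when ES cells are treated with RA, on 14 Agilent 2-colour arrays, 2 arrays in each of 7 groups. All cells were the 129 strain line MC1 or its sublines, and each array set the Cy3-labelled RNA of 1 sample against a common Cy5-labelled reference, a pool of 11 mouse cell lines mixed 2:1 with 129 ES RNA. The labels do not say whether both arrays of 1 group hold RNA of different cultures, so the spread and the p-values below measure the variation between these arrays, which may be technical. The control (control day 3, source name control with growth factors) was MC1-ZE3, grown for 3 days with LIF in standard ES medium. RA 48 h was MC1-ZE3 grown for 24 h and then given 50 nM all-trans RA for 48 h, and LY294002 48 h was MC1-ZE3 treated in the same way with LY294002, at 10 nM by the label, a unit that may be wrong. Standard day 3 was untreated MC1-ZE3 plated on gelatin as a monolayer, and passage 10 was MC1-ZE3 kept in RA for 7 days and then for 10 passages without it. The day 4 colonies came from MC1-ZE16 and the day 7 colonies from ES MC1 (strain label 129SvEv-Tac, where the other groups carry 129/Sv), both with 50 nM RA. The titles of the day 7 arrays also name LIF (Intact Lif+ RA), and those of the day 4 arrays do not. The design text says that these colonies of pluripotent cells were picked by hand, whereas the extraction notes speak of colonies picked and pooled for all groups but the day 7 colonies, and of a well for those. The 2 colony groups thus differ from passage 10 and from each other in subline as well as in treatment, and subline and treatment cannot be told apart.

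Mouse ES cells stay undifferentiated with the help of LIF, a cytokine that acts through the receptor subunit gp130 and the transcription factor STAT3. RA binds nuclear receptors that sit on DNA and turns on genes of differentiation. LY294002 inhibits phosphoinositide 3-kinase (PI3K), the enzyme that links growth factor receptors to the kinase AKT and that contributes to self-renewal of mouse ES cells.

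The array files give each probe an identifier and a sequence of 60 bases and no gene name, so the members are named here by probe, and the label ES could not be checked against marker genes. The sequences of the members the results turn on follow, 5′ to 3′. The 4 with the highest scores come first, and capitals in the fourth mark the stretch it shares with the start of a gene.
Z00012639-1: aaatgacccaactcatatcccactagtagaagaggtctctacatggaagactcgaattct
Z00028472-1: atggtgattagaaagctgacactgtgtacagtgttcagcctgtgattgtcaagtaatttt
Z00076450-1: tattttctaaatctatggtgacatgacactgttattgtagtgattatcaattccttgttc
Z00060753-1: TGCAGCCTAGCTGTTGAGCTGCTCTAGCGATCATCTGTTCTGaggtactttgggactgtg
The next set holds the members that differed most between the colonies and passage 10 or between the 2 kinds of colonies, in lower case throughout because no stretch of them is singled out.
Z00045959-1: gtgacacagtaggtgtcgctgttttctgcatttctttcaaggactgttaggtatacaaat
Z00074370-1: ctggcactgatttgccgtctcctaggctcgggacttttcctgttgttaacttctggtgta
Z00004783-1: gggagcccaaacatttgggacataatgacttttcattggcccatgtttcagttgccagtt
Z00006588-1: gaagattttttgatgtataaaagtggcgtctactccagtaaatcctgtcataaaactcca
Z00026697-1: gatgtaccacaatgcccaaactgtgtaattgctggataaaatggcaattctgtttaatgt
Z00029940-1: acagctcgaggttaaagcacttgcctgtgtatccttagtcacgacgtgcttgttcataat
Z00007249-1: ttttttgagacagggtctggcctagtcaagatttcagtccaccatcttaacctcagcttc
The last set shows members whose sequences overlap. Capitals mark the shared stretch in the first pair and the bases that differ in the second pair.
Z00074771-1: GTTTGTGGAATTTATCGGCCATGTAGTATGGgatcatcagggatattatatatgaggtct
Z00075861-1: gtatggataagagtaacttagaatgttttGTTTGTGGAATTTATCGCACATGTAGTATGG
Z00077050-1: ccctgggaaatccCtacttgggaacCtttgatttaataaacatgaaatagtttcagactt
Z00051485-1: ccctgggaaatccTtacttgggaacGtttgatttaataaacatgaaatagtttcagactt

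Against the RefSeq windows around gene starts (GRCm38.p6), 2 of the 150 members shared 30 or more bases. All 60 bases of Z00060753-1 lie upstream of the annotated start of Fthl17d, at chrX:8986680-8986739 on the minus strand, from 67 to 8 bases before it. Its first 42 bases, in capitals above, are also bases 9 to 50 after the start of Fthl17e, at chrX:9033494-9033535 on the plus strand, where the window ends. Fthl17d and Fthl17e belong to a cluster of genes on the X chromosome related to the ferritin heavy chain, the iron storage protein. Fthl17b and Fthl17c matched it at 47 of 49 overlapping bases and Fthl17f at 50 of 60, so the probe cannot be assigned to 1 gene of the family. The other match, of Z00070318-1, was to the strand opposite to the long non-coding RNA gene Gm31618, at chr2:152612670-152612729, from 116 to 57 bases before one of its starts.

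All levels below are log2 of sample over reference after background correction and loess normalization, unless another scale is named, and a level of 0 equals the reference. The median level of the 150 members was 0.81 and 0.75 on the 2 control day 3 arrays and 0.79 and 0.73 on the 2 RA 48 h arrays. It was -0.17 and -0.12 under LY294002, -0.09 and -0.07 in standard day 3, and -0.09 on both passage 10 arrays. Between these ends lay the day 4 colonies, at 0.11 and 0.07, and the day 7 colonies, at 0.27 on both arrays. The order of the groups by this median was thus control and RA 48 h, day 7 colonies, day 4 colonies, and then standard day 3, passage 10 and LY294002. The choice of members set control and RA 48 h high and standard day 3 and LY294002 low, so this order is a description. Within that order, control and RA 48 h differed by less than the spread between their arrays. Standard day 3 and passage 10 differed by less than the spread between the standard day 3 arrays, but by more than that between the passage 10 arrays.

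Detection also differed between the groups. Its Cy3 spot was well above background for 150 of the members on both control arrays, which the rule required, and for 145 and 150 on the RA 48 h arrays. It was so for 60 and 49 under LY294002, 48 and 53 in standard day 3 and 47 and 49 in passage 10, against 90 and 88 in the day 4 colonies and 119 and 115 in the day 7 colonies. Between 43 and 48 members were above background on both arrays of LY294002, standard day 3 and passage 10, so most low values in these groups are bounds rather than levels. Over all probes the share above background in Cy3 was 74.0% in control day 3, 71.9% in RA 48 h and 67.2% under LY294002. It was 58.0% in standard day 3, 57.4% in passage 10, 58.5% in the day 4 colonies and 66.2% in the day 7 colonies. The arrays therefore differed in overall brightness in part in the same way as the members, and its part in the result was not tested. In the control the median tested probe was 7.96 and 7.20 times its local background and the median member 3.68 and 3.29 times. Under LY294002 these values were 6.14 and 6.15 against 1.32 and 1.37. In standard day 3 they were 4.51 on both arrays against 1.55 and 1.53. These arrays chose the members, so the values are a description.

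**Figure D1:**
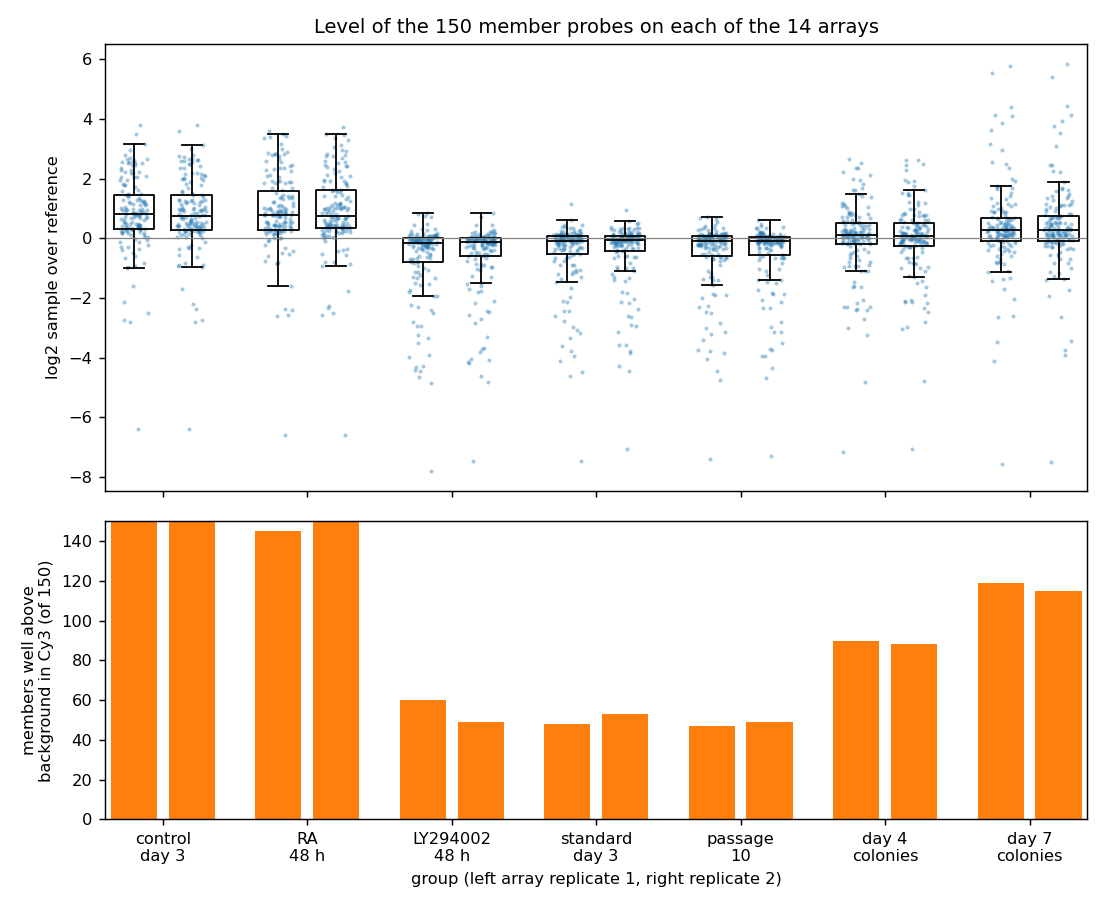
Upper panel: log2 of sample over reference for each of the 150 members (points) on each of the 14 arrays, with boxes for the quartiles and lines at the median. Lower panel: number of members well above background in Cy3 on the same arrays, from 47 on a passage 10 array to 150 in the control, with both kinds of colonies between these ends.

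The Cy5 channel, which carries the same reference RNA on every array, was also compared. For Cy5 alone, control minus standard had a median of -0.03 over the members and control minus LY294002 a median of 0.06, against 0.77 and 0.92 for Cy3 alone. These arrays chose the members, so this is a description.

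The size of the differences that chose the members depended on the scale. On the processed ratios used by the rule, control minus standard had a median of 2.81 over the members (quartiles 2.40 and 3.41) and control minus LY294002 a median of 3.18 (2.52 and 4.17). After normexp correction with an offset of 50 and loess, which draws dim spots towards a ratio of 1, the medians were 1.07 (0.55 and 2.09) and 1.28 (0.58 and 2.27). RA 48 h minus control had a median of 0.01 on the second scale and lay between -0.56 and 0.64 over the members. With the rule applied to the second scale, 113 of the 150 members met its 3 conditions and 56 stood among the top 150. Which probes enter the list thus depends on the scale. The parts that background correction and normalization have in this were not tested.

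LY294002 and standard day 3 were both chosen to be low, and 89 and 95 members had no array above background there. LY294002 minus standard had a median of -0.05 (quartiles -0.28 and 0.02) and a lowest value of -1.61. On the processed ratios, without the offset, the median was -0.25 (quartiles -0.81 and 0.17) and the lowest value -3.92. Passage 10 minus standard had a median of -0.02 (quartiles -0.10 and 0.07). All 4 control day 3 and RA 48 h arrays lay on 1 slide that held no other group, so for the high level of these groups slide and group cannot be told apart. LY294002 was on another slide scanned on the same day, and standard day 3 and passage 10 shared 2 further slides scanned on other days.

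Z00012639-1 had the highest score, 5.92. Its levels were 1.72 and 1.82 in the control and 2.45 and 2.31 in RA 48 h, against -0.02 and 0.09 under LY294002, -0.01 and 0.09 in standard day 3 and 0.11 and -0.05 in passage 10. The day 4 colonies gave 0.87 and 0.52 and the day 7 colonies 0.88 and 0.70. Both kinds of colonies stood above passage 10 on every array (0.66 ± 0.11 for day 4, limma adjusted p = 2.40e-04, and 0.76 ± 0.11 for day 7, adjusted p = 6.93e-05) and below the control. The probe was not well above background on any LY294002, standard day 3 or passage 10 array, so only bounds in the Cy3 channel are given there: the control was at least 2.30-fold above standard day 3 and at least 2.47-fold above LY294002. Such Cy3 bounds set the mean Cy3 level of the brighter group against a level for the dimmer group. On each array of the dimmer group this level was the higher of the dim probe's own signal and the lowest signal well above background. Cy3 levels for the bounds were taken after normexp correction, loess and a quantile scaling between arrays of the average of both channels. Their scale is thus shaped by the offset and the reference channel, and differs from that of Cy3 alone used elsewhere. The bounds can lie above the fold of the ratios, so they bound no fold of a ratio. Every sample was in Cy3, and without dye swaps a dye bias that differs between arrays was not tested.

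Z00028472-1, with the next score (4.57), was above background in the day 7 but not in the day 4 colonies. Its levels were 0.22 and 0.14 in the control and -0.29 and -0.12 in the day 7 colonies, against -0.93 and -0.95 in the day 4 colonies and -0.88 and -0.72 in passage 10, both groups with no array well above background. The day 7 colonies were 1.51-fold above passage 10 by the ratios (limma adjusted p = 2.94e-04, 0.60 ± 0.10, difference ± SE on the log2 scale) and at least 1.60-fold by the Cy3 bound. Against the day 4 colonies the ratios gave 1.67-fold (limma adjusted p = 5.84e-05), and the Cy3 bound was at least 1.67-fold.

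Z00076450-1 was measured on all arrays and moved over a wide range below the reference. Its levels were -0.96 and -0.91 in the control, -4.33 and -4.04 under LY294002, -4.12 and -3.83 in standard day 3, and -4.06 and -3.95 in passage 10. The day 4 colonies stood between these groups at -2.31 and -2.14, and the day 7 colonies reached -0.78 and -0.70. The day 7 colonies were 9.59-fold above passage 10 (3.26 ± 0.11, adjusted p = 1.01e-10) and the day 4 colonies 3.44-fold (1.78 ± 0.11, adjusted p = 3.07e-08).

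Z00060753-1, the probe that matches the Fthl17 family, was at 2.04 and 1.99 in the control and 2.57 and 2.45 in RA 48 h. LY294002 gave -0.07 and -0.13, standard day 3 -0.09 and -0.08, and passage 10 -0.20 and -0.08, none of them well above background. Both kinds of colonies were above passage 10: the day 4 colonies, at 0.62 and 0.74, by 1.76-fold (0.82 ± 0.08, adjusted p = 1.63e-06), and the day 7 colonies, at 0.90 and 0.74, by 1.94-fold (0.96 ± 0.08, adjusted p = 3.02e-07). The Cy3 bounds were at least 1.87-fold and at least 2.15-fold. The 2 kinds of colonies overlapped (adjusted p = 0.141). Z00070318-1, the probe opposite to Gm31618, had means of 1.35 in the control and 2.00 in RA 48 h, 0.49 and 0.53 in the day 4 and day 7 colonies, and between -0.10 and 0.09 in LY294002, standard day 3 and passage 10.

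At the edge of the list, the last members inside were Z00046246-1 and Z00070663-1, each with a score of 2.05, and the next probes outside were Z00073937-1 and Z00024824-1, each with 2.04. Z00046246-1 was at 0.44 and 0.55 in the control and between -0.13 and 0.07 on the LY294002 and standard arrays, where it was not well above background. Z00070663-1 was at 1.81 and 2.43 in the control, and at -0.17 and -0.13 under LY294002 and 0.21 and 0.39 in standard day 3, all well above background. Just outside, Z00073937-1 was at 3.33 and 3.26 in the control, and at 0.96 and 1.08 under LY294002 and 0.26 and 0.38 in standard day 3. Z00024824-1 was at -0.41 and -0.35 in the control, with -1.17 and -0.91 under LY294002 and -1.02 and -0.84 in standard day 3. The boundary separates probes with nearly the same score and unlike levels.

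The arrays that took no part in the choice were those of both kinds of colonies and of passage 10. The day 7 and the day 4 arrays each lay on a slide of their own, so slide and group cannot be told apart there. Each comparison was fitted with limma over all 14 arrays and 31053 tested probes, and a probe was called at a Benjamini-Hochberg adjusted p under 0.05. All 150 members were tested, because being above background in the control, which the choice required, is enough to pass the filter. In the 3 groups compared, 119 of them had Cy3 signal well above background on each array of 1 group or more. Passage 10 is the same subline as standard day 3 and shared both its slides, so a choice of probes low in standard day 3 tends to pick probes low in passage 10. The comparison of day 7 with day 4 colonies does not have this link.

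In the day 4 colonies 78 of the 150 members were higher than in passage 10 and 1 was lower, against 25.8% of all tested probes higher and 24.4% lower. A difference of at least 2-fold was called upwards for 28 members and downwards for 0, against 3.97% and 3.62% of all tested probes. The median difference was 0.25 over the members and 0.01 over all tested probes. In RNA of a whole sample, fewer cells that express a gene and less of its RNA per cell cannot be told apart. Of the other 5008 probes that met the 3 conditions without reaching the top 150, 35.5% were higher and 9.19% lower. Of the 78 higher members, 66 were well above background on both day 4 arrays, and 43 were so on no passage 10 array.

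Z00045959-1 had the largest difference in this comparison. The day 4 colonies gave 2.54 and 2.64, passage 10 -0.52 and -0.38 and not above background, and the control 2.47 and 2.35. Day 4 colonies were 8.21-fold above passage 10 by the ratios (3.04 ± 0.09, adjusted p = 5.44e-11) and at least 8.38-fold by the Cy3 bound, and lay close to the control. Z00074370-1, measured on all arrays, was at 1.10 and 0.97 in the day 4 colonies and at -1.89 and -1.74 in passage 10, a 7.21-fold difference (2.85 ± 0.09, adjusted p = 7.06e-11). In the control it lay lower than in these colonies, at 0.43 and 0.20.

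The only member lower in the day 4 colonies was Z00048687-1. It was at 0.36 and 0.35 in passage 10, well above background there, and at -0.17 and -0.04 in the day 4 colonies, not above background. Passage 10 was at least 1.34-fold higher by the Cy3 bound (day 4 minus passage 10 by the ratios -0.46 ± 0.09, adjusted p = 5.55e-04). This call was lost without loess (-0.27, adjusted p = 0.106), and over all alternatives its adjusted p ran from 1.05e-04 to 0.106. The control arrays, at 1.47 and 1.39, stood far above both groups.

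In the day 7 colonies 97 of the 150 members were higher than in passage 10 and 5 were lower, against 29.1% and 26.6% of all tested probes. At 2-fold or more the counts were 43 higher and 0 lower, against 5.97% and 3.57%. The median difference was 0.46 over the members and 0.01 over all tested probes, and among the other 5008 probes that met the conditions 48.1% were higher and 6.69% lower. Of the 97 higher members, 90 were well above background on both day 7 arrays, and 53 were so on no passage 10 array. The calls ran from 0.24 to 5.98 on the log2 scale.

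Z00004783-1 showed the largest difference. The day 7 colonies gave 5.78 and 5.84, the day 4 colonies 2.67 and 2.63, and passage 10 -0.17 on both arrays and not above background. The day 7 colonies were 63-fold above passage 10 by the ratios (5.98 ± 0.07, adjusted p = 1.55e-14) and at least 89.1-fold by the Cy3 bound. The control, at 3.16 and 3.12, and RA 48 h, at 3.50 and 3.46, stood between the day 4 and the day 7 colonies. Z00074370-1 reached 4.12 and 4.13 in the day 7 colonies, 61.4-fold above passage 10 (5.94 ± 0.09, adjusted p = 2.01e-13), and no array of any other group came above 1.10.

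Differences downwards in the day 7 colonies were small. Z00022648-1 was at 0.67 and 0.39 in passage 10 and at 0.16 and -0.08 in the day 7 colonies, 1.41-fold lower (-0.49 ± 0.10, adjusted p = 1.07e-03), and the call was lost without loess (-0.33, adjusted p = 0.0614, in a range over the alternatives of 1.01e-04 to 0.0614). Z00023306-1 was at -2.32 and -2.13 in passage 10 and at -2.64 on both day 7 arrays (-0.42 ± 0.15, adjusted p = 0.0317), and was above background in neither group, so no fold is given. On the processed ratios its direction turned (0.15, adjusted p = 0.742, in a range over the alternatives of 5.77e-03 to 0.742). The call was also lost without loess, with Cy3 alone, and without day 7 replicate 1 (adjusted p = 0.0924), day 7 replicate 2 (0.0918) or passage 10 replicate 2 (0.182). Without passage 10 replicate 2 the median difference over all members was 0.47, against 0.02 over all tested probes.

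**Figure D2:**
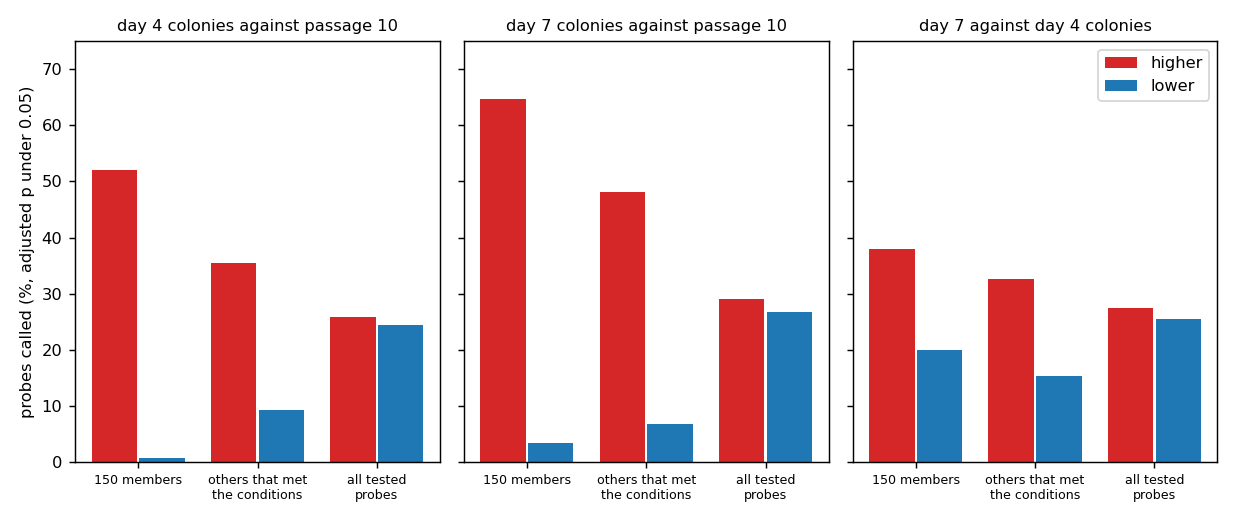
Share of probes called higher (red) and lower (blue) at an adjusted p under 0.05 in each of the 3 comparisons, for the 150 members, the 5008 other probes that met the conditions of the choice and all 31053 tested probes. Lower calls among the members were 1, 5 and 30, against 24.4%, 26.6% and 25.4% of all tested probes.

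Between the colonies the members split. In the day 7 colonies 57 members were higher than in the day 4 colonies and 30 were lower, against 27.4% and 25.4% of all tested probes, so after loess the share higher was above the background and the share lower below it. At 2-fold or more 26 were higher and 2 lower, against 4.36% and 2.61%. The median difference was 0.11 over the members and 0.01 over all tested probes. Among the other 5008 probes that met the conditions 32.6% were higher and 15.3% lower. With ratios centred on the array median in place of loess, 41 of the 150 members were higher and 12 lower, against 25% and 8.13% of all tested probes, so both shares were then near the background. Their median difference was then 0.03, against 0.06 over all tested probes. With Cy3 alone 52 members were higher and 38 lower, against 25.2% and 26.2% of all tested probes, so the share lower was near the background. The processed ratios gave 60 higher and 28 lower, against 27.4% and 25.3%.

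Z00006588-1 had the largest difference upwards. The day 7 colonies gave 3.86 and 3.93, the day 4 colonies 0.15 and -0.10, a 14.6-fold difference (3.87 ± 0.08, adjusted p = 1.15e-11). The control, at 1.45 and 1.44, lay between them, and passage 10, at -0.62 and -0.64, below both. Z00026697-1 was at 4.09 and 3.54 in the day 7 colonies and at 0.36 and 0.40 in the day 4 colonies (10.8-fold, 3.44 ± 0.17, adjusted p = 6.62e-09), and at 0.79 and 0.97 in the control.

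Other members were lower in the day 7 colonies of ES MC1 than in the day 4 colonies of MC1-ZE16. Z00029940-1 was at 2.00 and 1.97 in the day 4 colonies, near the control's 2.53 and 2.36, and at 0.44 and 0.25 in the day 7 colonies, 3.11-fold lower (-1.64 ± 0.09, adjusted p = 1.07e-08). Z00007249-1 was at 1.81 and 1.76 in the day 4 colonies and at 0.34 and 0.26 in the day 7 colonies (2.80-fold lower, -1.49 ± 0.09, adjusted p = 2.24e-08). Its control arrays, at 0.23 and 0.25, lay near the day 7 colonies, so only the day 4 arrays stood above 1. One of the 2 day 7 arrays was well above background.

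**Figure D3:**
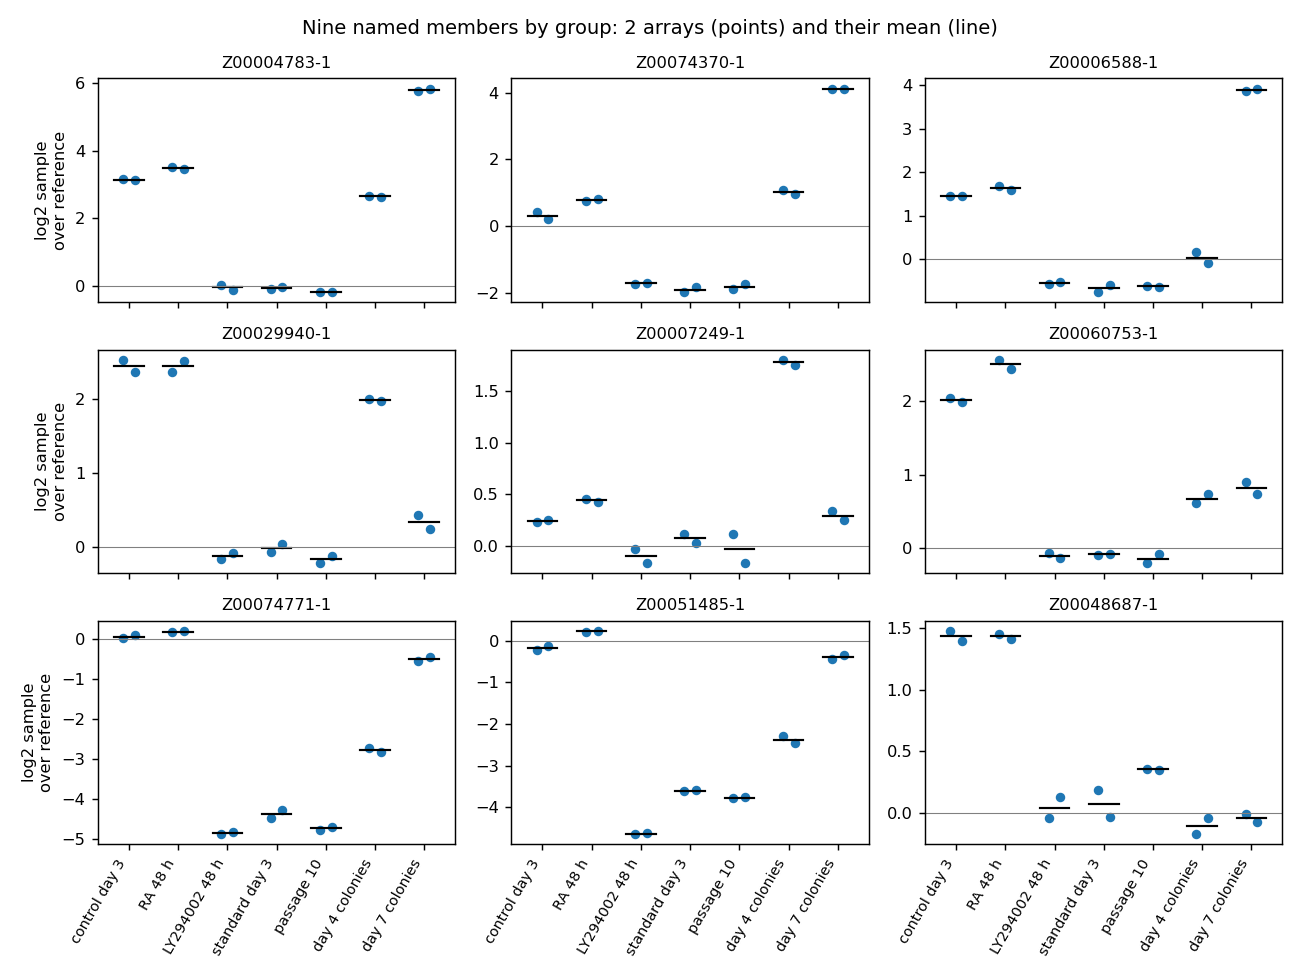
Log2 of sample over reference on both arrays (points) and their mean (line) of each of the 7 groups for 9 members named in the text. Z00004783-1, Z00074370-1 and Z00006588-1 are highest in the day 7 colonies, Z00029940-1 and Z00007249-1 are lower in the day 7 than in the day 4 colonies, and Z00074771-1 and Z00051485-1 are lowest in LY294002, with the day 4 colonies between passage 10 and the day 7 colonies.

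Although the members were chosen for a high level in the control, 11 of them were more than 1 log2 unit above it in the day 7 colonies and 2 were so in the day 4 colonies. The 11 were named after their values were seen, and these differences are not tested because the control was used in the choice. The largest was that of Z00074370-1, at 3.81 above the control, and the smallest that of Z00025345-1, at 1.51. Between them came Z00045959-1, Z00026697-1, Z00004783-1, Z00025295-1, Z00006588-1, Z00022644-1, Z00025383-1, Z00073897-1 and Z00054946-1, in that order. Their day 7 level exceeded that in the day 4 colonies by 2.05 to 3.87, also given as a description, since a high day 7 level picked them. For the members as a whole the colonies lay below the control, with a median difference of -0.54 in the day 7 and -0.66 in the day 4 colonies, and 21 and 11 of 150 members respectively were above it.

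**Figure D4:**
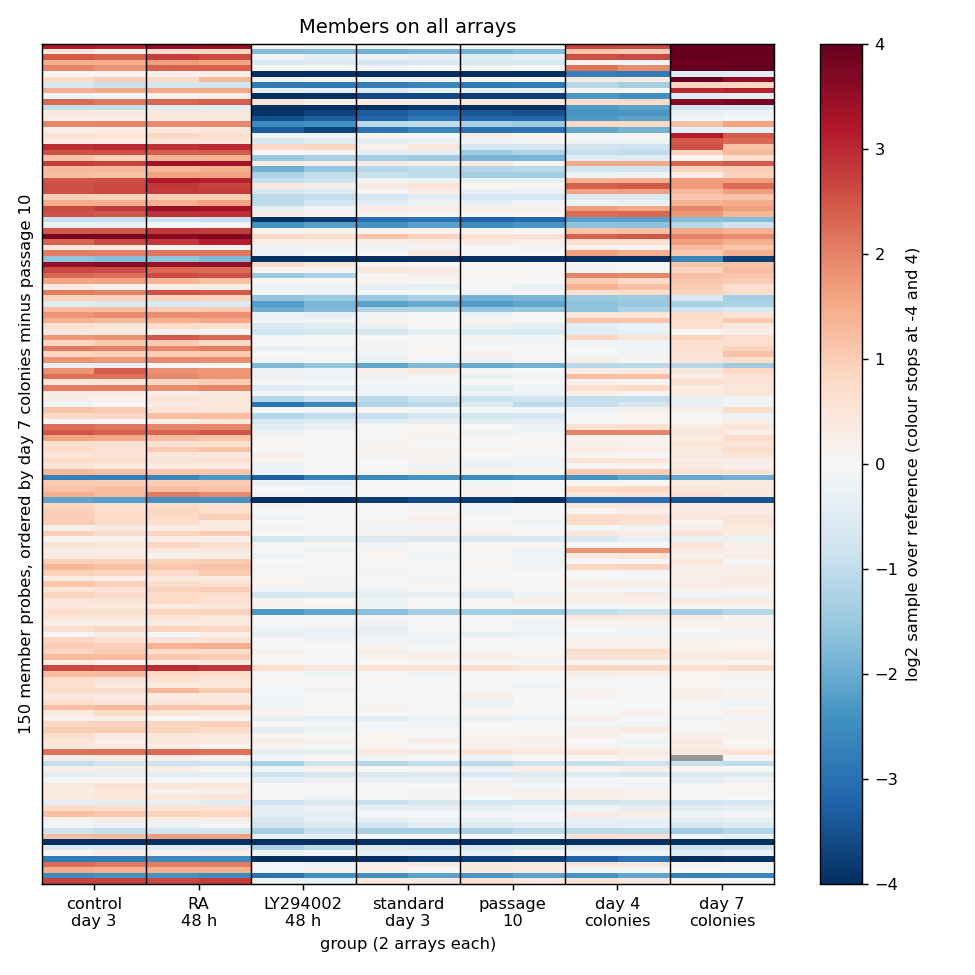
Level of each of the 150 members (rows, ordered by day 7 colonies minus passage 10) on the 14 arrays (columns, 2 per group), as log2 of sample over reference with colours that stop at -4 and 4, and grey for 1 value left out. The control and RA 48 h columns are red for most rows, the LY294002, standard and passage 10 columns are pale or blue, and the day 7 columns are darkest red in the top rows.

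A set of 16 members, picked by their level and so not tested as a set, lay below -2 on both passage 10 arrays, far under the reference pool. Of the 16, 13 were well above background in Cy3 on all 14 arrays, so their low levels were measured. Their median was -3.32 in passage 10, -3.14 in standard day 3 and -3.85 under LY294002, -2.24 in the day 4 colonies and -1.14 in the day 7 colonies, and -0.85 and -0.67 in the control and RA 48 h. Control means lay above -1 for 10 of them and day 7 means for 8, whereas no day 4 mean did. For 11 of the 16 the day 4 mean lay between passage 10 and the day 7 colonies. One member, Z00024960-1, stayed far below the reference in all groups, with means from -7.64 to -6.39.

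Among these are members with related sequences. In Z00074771-1 and Z00075861-1 a stretch of 31 bases is shared but for the changes G18C and C19A, with positions counted from the 5′ end of Z00074771-1. Z00074771-1 was at 0.03 and 0.11 in the control, -4.86 and -4.81 under LY294002, -4.47 and -4.28 in standard day 3 and -4.76 and -4.69 in passage 10. The day 4 colonies gave -2.72 and -2.82 and the day 7 colonies -0.53 and -0.45. Z00075861-1 followed the same order, at 0.18 and 0.28 in the control, -2.99 and -2.96 in passage 10, -2.07 and -1.90 in the day 4 colonies and -0.34 and -0.29 in the day 7 colonies. The day 7 colonies were 18.8-fold above passage 10 for the first (4.23 ± 0.08, adjusted p = 7.96e-13) and 6.31-fold for the second (2.66 ± 0.12, adjusted p = 1.06e-09), and above the day 4 colonies for both (adjusted p = 2.36e-10 and 1.09e-07).

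Z00077050-1 and Z00051485-1 are the same 60 bases but for C14T and C26G, counted from the 5′ end of Z00077050-1. Z00051485-1 was at -3.77 and -3.76 in passage 10, -2.29 and -2.46 in the day 4 colonies and -0.43 and -0.35 in the day 7 colonies, against -0.22 and -0.12 in the control. Z00077050-1 was not above background in passage 10 or standard day 3, and gave -0.51 and -1.05 in passage 10, -0.91 and -0.67 in the day 4 colonies and -0.25 and -0.11 in the day 7 colonies. The 2 probes differed in range and shared the order of day 7 above day 4 colonies (adjusted p = 3.34e-10 for Z00051485-1 and 5.61e-03 for Z00077050-1, the latter from 3.40e-07 to 0.101 over the alternatives). Probes with shared sequence may bind each other's targets, which was not tested. The 4 probes of these pairs can therefore not be taken as independent members. A further 2 pairs overlapped, Z00055063-1 with Z00039903-1 over 49 identical bases and Z00041396-1 with Z00055220-1 at 43 of 53 bases, which makes 8 members in 4 pairs. They were named for their sequences, after their values were seen.

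**Figure D5:**
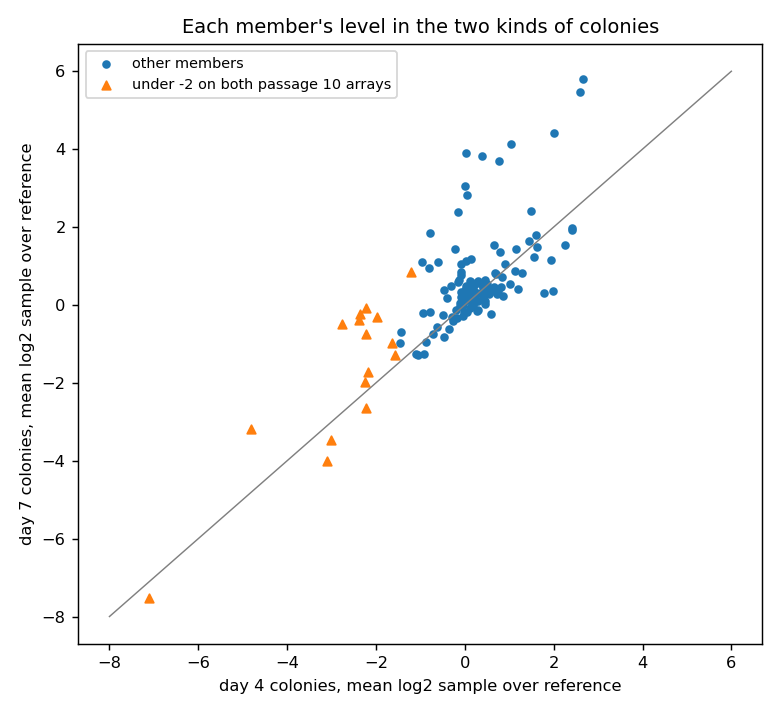
Mean log2 of sample over reference of each member in the day 4 colonies (horizontal axis) and the day 7 colonies (vertical axis), each a mean of 2 arrays, with the line of equal levels. Triangles are the 16 members below -2 on both passage 10 arrays, none of which had a day 4 mean above -1, and the points high above the line include members at up to 5.81 in the day 7 colonies.

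Base composition and a pair of short motifs were compared with the other probes. The members' median GC content was 42.5% (quartiles 37.1% and 45%), against 43.3% over all probes (38.3% and 50%) and 45% over the 5158 probes that met the conditions (40% and 51.7%). The motif AATAAA, the usual signal for cleavage of a transcript's end, was found on the strand as given in 12 members, 8% against 6.93% of all probes, and on either strand in 12% against 10.1%. The motif ATTTA, a core of AU-rich elements, which mark short-lived transcripts, was found on the strand as given in 14 members, 9.33% against 7.25% of all probes, and on either strand in 16.7% against 14.3%. On the array the members were spread over 4 equal bands of its rows, with 32, 48, 32 and 38 members, and of its columns, with 28, 41, 42 and 39.

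Of the 50 members with the highest scores 33 were higher in the day 4 and 43 in the day 7 colonies than in passage 10. Of the next 50 the counts were 26 and 27, and of the last 50 they were 19 and 27. Over all tested probes 25.8% and 29.1% were higher. Lower calls numbered 0 and 0 in the first 50, 0 and 1 in the next, and 1 and 4 in the last. The score rests on standard day 3, of the same subline and slides as passage 10, so these counts are a description.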

How the data were processed

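Scanner output of Agilent Feature Extraction 9.5.1.1 was used, per the file headers, with the sample in Cy3 and the reference in Cy5 and no dye swap, per the labels. The deposited intensity values are mean signals and local background per spot, not normalized. The deposited log10 ratios, background-subtracted and dye-normalized by that software per the file headers, are of Cy5 over Cy3; the choice of members used them with the sign turned. The authors' table of log10 values holds 25030 probes and 111 of the members; its scale and centring are not given in the sources used here, and its column medians are 2.24 to 2.32.

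The members and all lists were chosen with earlier results of these data known. Here intensities were corrected with normexp (offset 50) and loess in limma 3.58.1 (R 4.3.3, statmod 1.5.0 and the package data.table in version 1.17.8), control spots and the 1 to 24 outlier spots per array were left out, and the spots of a probe were averaged. For 1 member (Z00041933-1) this left out its value on day 7 colonies replicate 1. Probes well above background in Cy3 on both arrays of 1 group or more were tested (31053, 73.9%). The tests were 2-sided eBayes contrasts, on 7 residual degrees of freedom and a prior of 5.33. The fit was tested on simulated data.

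The rule for named probes took the 4 highest scores, 2 probes on each side of the limit, and the 2 largest rises and falls per comparison among called members whose arrays did not overlap. Gene lists for ES cell, RA target and lineage marker genes could not be applied, as no probe has a gene name. No label ties the replicate numbers of the groups tested, and same-numbered arrays did not deviate together (r of -0.05, -0.06 and 0.11 across probes), so they were not paired. The 2 arrays of a group correlated at 0.984 to 0.996 over the members, and none held identical values. Slides (6) and scan days (4) were read from the file headers: the day 7 colonies, day 4 colonies and LY294002 each had a slide of their own, so slide and group cannot be told apart for them. The number of arrays limits the precision.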

Additional observations from a re-analysis of the deposited data

How the results depend on the processing

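The counts below are of members called higher and lower, at 78 and 1 for day 4 colonies against passage 10, 97 and 5 for day 7 colonies against passage 10, and 57 and 30 for day 7 against day 4 colonies. Asking for Cy3 above background on all 14 arrays left 35 members to test and gave 26 and 0, 32 and 1, and 25 and 6 (over all probes tested 32.4% and 31.5%, 34.6% and 32.8%, and 33.7% and 31.3%). Centring on the array median in place of loess gave 57 and 0, 76 and 1, and 41 and 12 (over all 12.6% and 14.3%, 24.5% and 9.97%, and 25% and 8.13%). In the first comparison the processed ratios, Cy3 alone and the authors' table each gave 4 lower (over all 26.9%, 26.1% and 30.7%). Asking for a 2-fold difference, a rule added after seeing the data, gave 28 and 0, 43 and 0, and 26 and 2. Over all tested probes the shares were then 3.97% and 3.62%, 5.97% and 3.57%, and 4.36% and 2.61%. Without 1 array of the groups compared, the members' median difference ran from 0.24 to 0.29 in the first comparison. It ran from 0.44 to 0.48 in the second and from 0.08 to 0.15 in the third. Over all tested probes the median was 0.02 or less in each of these fits. Leaving out an array of the group not compared changes the shared spread, and with it the calls, but not the differences. Without either day 7, day 4 or passage 10 array respectively, the members' medians in the 3 comparisons stayed at 0.25, 0.46 and 0.11. Over all tested probes the median in these fits was 0.01. With the replicate number as a block the counts were 80 and 1, 97 and 6, and 58 and 31 (over all 26.2% and 24.6%, 29.2% and 27%, and 27.6% and 25.8%). A random block for the slide gave 80 and 1, 97 and 6, and 58 and 33 (over all 26.3% and 24.7%, 29.4% and 27%, and 27.9% and 25.9%). Fitting only the 6 arrays compared gave 79 and 1, 95 and 5, and 57 and 27 (over all 24% and 22.6%, 27.1% and 25%, and 25.6% and 23.6%). The lower level of Z00023306-1 in day 7 colonies reversed on the processed ratios (0.15, adjusted p = 0.742). The probes named for the largest differences gave 143 results under an alternative, of which 135 kept direction and call, 7 lost the call and 1 reversed; these exceptions are all of Z00023306-1, Z00048687-1 and Z00022648-1, and probes named for their sequence or score are not counted. The median over members of control minus standard ran from 0.77 (Cy3 alone) to 2.81 (processed ratios). The cause of these shifts was not tested. Where a member is not above background in passage 10, in 97 of 150 on both arrays, its difference is limited by that background.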
